A study of Homo sapiens with 11 samples.

Results

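Heme degradation and iron handling were followed through 10 genes, HMOX1, HMOX2, BLVRA, BLVRB, SLC48A1, FTH1, FTL, NCOA4, TFRC and SLC40A1, in MOLM-13 cells, a line grown from human acute myeloid leukemia that carries a rearranged KMT2A gene. The genes were taken up because HMOX1 showed the highest rise when PR-957 was added to MI-503. The others were added for their roles around it, with earlier results of these data known. The 10 genes stand among 38557 annotated genes, and 8 of them were among the 14683 genes with enough counts to be tested. HMOX2 and SLC40A1 were not tested. The 11 RNA sequencing libraries were made after 72 h of exposure. In 4 of them the cells had received the solvent DMSO, and in 4 they had received MI-503 at 1 µM, which blocks Menin, the cofactor that holds KMT2A complexes on chromatin. In 3 libraries, numbered 1, 2 and 4 and called the combination here, the same dose of MI-503 had been joined by PR-957 at 100 nM, which blocks PSMB8, a catalytic subunit of the immunoproteasome. No library with PR-957 alone was used here, so PR-957 was seen only on top of MI-503. All libraries came from 1 cell line, and no label says that replicates of a group were separate cultures, so p-values measure the spread between these libraries.

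Heme is taken apart by heme oxygenase, which opens the ring and releases iron, carbon monoxide and biliverdin, and biliverdin reductases turn biliverdin into bilirubin. The freed iron is stored in ferritin, a shell of heavy and light chains, or leaves the cell through ferroportin. Iron enters mostly on transferrin, which binds the transferrin receptor. HMOX1 is the inducible heme oxygenase, known to be switched on by heme and by oxidative stress through the factor NRF2 and held down by BACH1. In myeloid cells and macrophages the route is best known from the recycling of heme.

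Ferritin, ferroportin and the transferrin receptor are also controlled at the RNA level. Iron regulatory proteins bind iron responsive elements, short hairpins with a CAGTGN loop, and block translation when the hairpin lies ahead of the coding sequence or protect the RNA when it lies behind it. The elements found in FTL and TFRC are shown, since they mark the RNAs on which this control acts. The loop is in capitals, and each line gives 27 bases of the reference genome hg38, 5′ to 3′ on the strand of the gene. The first lies in the 5′ UTR of FTL on the plus strand, and the next 4 lie in the 3′ UTR of TFRC on the minus strand.
FTL, chr19:48965336-48965362: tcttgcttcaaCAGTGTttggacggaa
TFRC, chr3:196050464-196050490: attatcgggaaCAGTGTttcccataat
TFRC, chr3:196050511-196050537: tgtatcggagaCAGTGAtctccatatg
TFRC, chr3:196050576-196050602: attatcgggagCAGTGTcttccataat
TFRC, chr3:196050980-196051006: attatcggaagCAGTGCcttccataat
The search asked for the loop between 5 paired bases on each side and an unpaired C below them. It matched the 5′ UTR of 11 of 19701 canonical protein-coding transcripts, a share of 0.0558%, and the 3′ UTR of 97, a share of 0.492%. SLC40A1 also held 1 element in its 5′ UTR. Search results for FTH1 and HMOX1 are not reported here, so nothing is said of whether they carry an element. A match describes the letters and is not evidence of binding, and the counts here measure RNA and not protein.

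Library depth ranged from 18.9 to 41.2 M counted fragments, and levels are given as CPM, the fragments of a gene per 1e6 fragments of its library, after TMM scaling. Changes are log2 fold changes from edgeR with their standard error (SE), and a gene was called when its Benjamini-Hochberg adjusted p over all tested genes was under 0.05. The 8 markers of myeloid leukemia cells, PTPRC, CD33, SPI1, FLT3, CSF1R, LYZ, MPO and ITGAM, had counts in every group. Their summed level was 927 to 1011 CPM in DMSO, 1362 to 1410 CPM in MI-503 and 1510 to 3481 CPM in the combination. The rise in the combination came from LYZ, the gene of lysozyme, since the other 7 markers summed to 839 to 905 CPM in DMSO, 989 to 1040 CPM in MI-503 and 911 to 971 CPM in the combination. Of 9 markers of lymphoid, erythroid, epithelial, stromal and endothelial cells, PECAM1, which myeloid cells also carry, made up nearly all of the summed level, and the other 8 summed to between 2.12 and 3.68 CPM in all libraries. In bulk RNA, a change in the share of cells that express a gene cannot be told apart from a change in RNA per cell. Combination replicate 1 stood apart from the other combination libraries. A chi-square test of its counts, divided by the degrees of freedom, gave 19.4 against replicate 2 and 33.3 against replicate 4. The value was 4.59 between replicates 2 and 4 and 1.71 to 5.97 within the other groups. It rises with depth where replicates differ, and replicate 1 was the deepest library (41.2 M), which was not corrected for. At a mean of at least 5 CPM, 37 of 10039 genes in replicate 1 lay beyond 2-fold of the other combination libraries' mean. Of these, 24 were lower and 13 higher, and replicates 2 and 4 had 2 and 12 such genes. Each combination library is therefore given by itself for the tested members. Values without replicate 1 are given beside the changes of HMOX1, FTL, FTH1 and TFRC, while several genes of other lists appear as group means.

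HMOX1 lies on chromosome 22 from 35381096 to 35394207 on the plus strand, with 1554 exon bases that no other gene shares. It was almost absent from cells without PR-957. In DMSO replicates 1 to 4 the raw counts were 8, 5, 11 and 12, equal to 0.270, 0.230, 0.521 and 0.569 CPM. In MI-503 they were 9, 14, 20 and 11, equal to 0.416, 0.407, 0.825 and 0.450 CPM. The ranges of DMSO and MI-503 overlapped. The group means were 0.398 ± 0.173 CPM (SD, n = 4) and 0.525 ± 0.201 CPM (SD, n = 4). The log2 difference between MI-503 and DMSO was 0.42 (SE 1.46, adjusted p = 0.836 by edgeR), a standard error that carries the spread of the combination libraries. Fitted on the DMSO and MI-503 libraries alone, it was 0.47 (SE 0.35, adjusted p = 0.268), so a change of about this size was not detectable at these counts. Across all alternatives the adjusted p was 0.268 to 0.955.

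In the combination, HMOX1 reached 338 counts (7.97 CPM) in replicate 1, 1780 counts (89.2 CPM) in replicate 2 and 1273 counts (47.3 CPM) in replicate 4. All 3 libraries lay above every library without PR-957, but replicate 1 stood at 11.7% of the mean of the others. Against the MI-503 mean the libraries were 15.2-fold, 170-fold and 90.2-fold higher in turn, and against the DMSO mean they were 20.1-fold, 224-fold and 119-fold higher. The fitted log2 difference was 6.50 (SE 0.69) against MI-503 and 6.91 (SE 0.74) against DMSO. Without replicate 1 these were 6.99 (SE 0.23) and 7.46 (SE 0.25), and without replicate 2 they were 5.67 (SE 0.57) and 6.13 (SE 0.61). No p is given for these 2 contrasts, which share the combination libraries, because HMOX1 was chosen on this rise. The p-values given below for other members in the combination against DMSO rest on these same libraries and are descriptions. Among genes called higher without overlap between groups and with a mean of at least 5 CPM, HMOX1 ranked 1 in both contrasts. This rank restates the rise on which it was chosen, and HMOX1 passed the 5 CPM mean only through the combination libraries. The next gene against MI-503 was CEP170B with a log2 difference of 4.41, and against DMSO it was LYZ with 4.11.

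**Figure D1:**
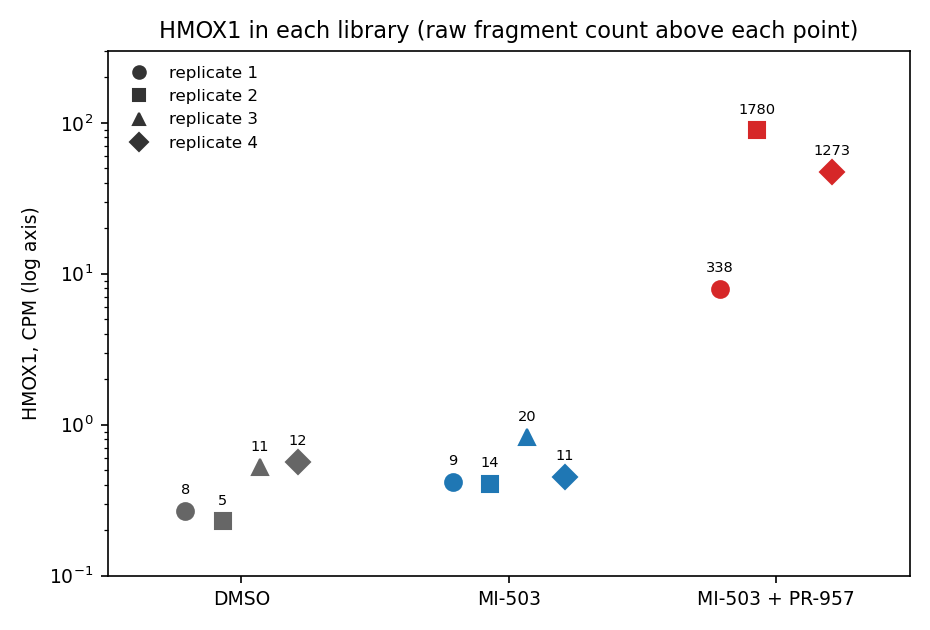
HMOX1 level (CPM, log axis) in each of the 11 libraries, by group, with the raw fragment count above each point and the replicate number as the marker shape. All libraries without PR-957 lie under 1 CPM, while the combination libraries spread from 7.97 to 89.2 CPM, with replicate 1 lowest.

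Other genes also stood apart in replicate 1, in both directions, with more of them lower than higher. LYZ, a myeloid marker, stood at 599 CPM in combination replicate 1 against 1811 and 2511 CPM in replicates 2 and 4, and 375 CPM on average in MI-503. Over the 11 libraries, the genes whose log2 CPM correlated most with HMOX1 among 10038 genes compared were NEAT1 (Pearson's r = 0.992), TBC1D20 (0.986), ASB16-AS1 (0.985), TBC1D24 (0.984), RN7SK (0.982) and RNF19B (0.982). These correlations describe 11 libraries in 3 groups and carry no test. NEAT1, a long noncoding RNA of the nucleus, stood at 85.2 CPM on average in DMSO and 93.9 CPM in MI-503, and at 210, 436 and 428 CPM in combination replicates 1, 2 and 4. RN7SK, a small nuclear RNA without a poly(A) tail that poly(A) selection should leave behind, stood at 9.60 and 10.6 CPM on average in DMSO and MI-503 and at 21.6, 84.3 and 60.8 CPM in the combination libraries. The part of library composition in the HMOX1 values was not tested. Among members, FTL had the next highest correlation with HMOX1 (r = 0.976, rank 13), followed by FTH1 (r = 0.946, rank 136).

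HMOX2, the constitutive heme oxygenase on chromosome 16, could not be read from these counts. It received 43 counts over all 11 libraries. The annotation lists it on 2 contigs of hg38, and all 1650 exon windows of 100 bases recurred on an alternate contig, so the fragments had more than 1 place to map and were left out of the counting. Its low counts therefore say nothing of its level.

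Both genes named as biliverdin reductases were higher in the combination. Enzyme activity on the biliverdin released from heme was not measured. BLVRB, which also reduces flavins, lies on chromosome 19 from 40447768 to 40465745 on the minus strand and rose in both steps. It stood at 20.1, 24.1, 23.0 and 21.1 CPM in the DMSO replicates and at 46.7, 49.7, 50.2 and 49.7 CPM in the MI-503 replicates. In combination replicates 1, 2 and 4 it stood at 126, 115 and 150 CPM. The 3 groups did not overlap, and combination replicate 1 stood between the other 2. MI-503 exceeded DMSO by 1.16 on the log2 scale (SE 0.08, adjusted p = 3.42e-09 by edgeR), a 2.23-fold rise. The combination exceeded DMSO by 2.57 (SE 0.08, adjusted p = 1.49e-13) and MI-503 by 1.41 (SE 0.07, given as a description).

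BLVRA, the other biliverdin reductase, on chromosome 7, was expressed at a low level. Counts were 9 to 19 in DMSO and 10 to 20 in MI-503, with means of 0.548 ± 0.122 and 0.538 ± 0.0540 CPM (SD, n = 4 each). The difference of -0.03 (SE 0.25, adjusted p = 0.94 by edgeR) changed sign under several alternatives. In combination replicates 1, 2 and 4 the counts were 68, 25 and 46, equal to 1.60, 1.25 and 1.71 CPM, all above every other library. The log2 difference was 1.47 against DMSO (SE 0.22, adjusted p = 1.8e-05) and 1.499 against MI-503 (SE 0.22). Combination replicate 1 stood between the other 2.

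SLC48A1, which carries heme out of endosomes and lysosomes into the cytosol, lies on chromosome 12 from 47753619 to 47782753 on the plus strand. It showed the same stepwise order as BLVRB, with no overlap between the groups. The DMSO replicates stood at 15.5, 14.5, 14.2 and 15.5 CPM and the MI-503 replicates at 34.1, 32.5, 37.9 and 35.9 CPM. The combination replicates 1, 2 and 4 stood at 72.9, 79.9 and 82.5 CPM. MI-503 exceeded DMSO by 1.23 (SE 0.06, adjusted p = 1.67e-10 by edgeR), a 2.35-fold rise, and the combination exceeded DMSO by 2.39 (SE 0.06, adjusted p = 4.84e-14) and MI-503 by 1.16 (SE 0.06). SLC48A1 shared 4.2% of its exon bases with HDAC7 and RAPGEF3, and fragments over such bases were not counted.

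**Figure D2:**
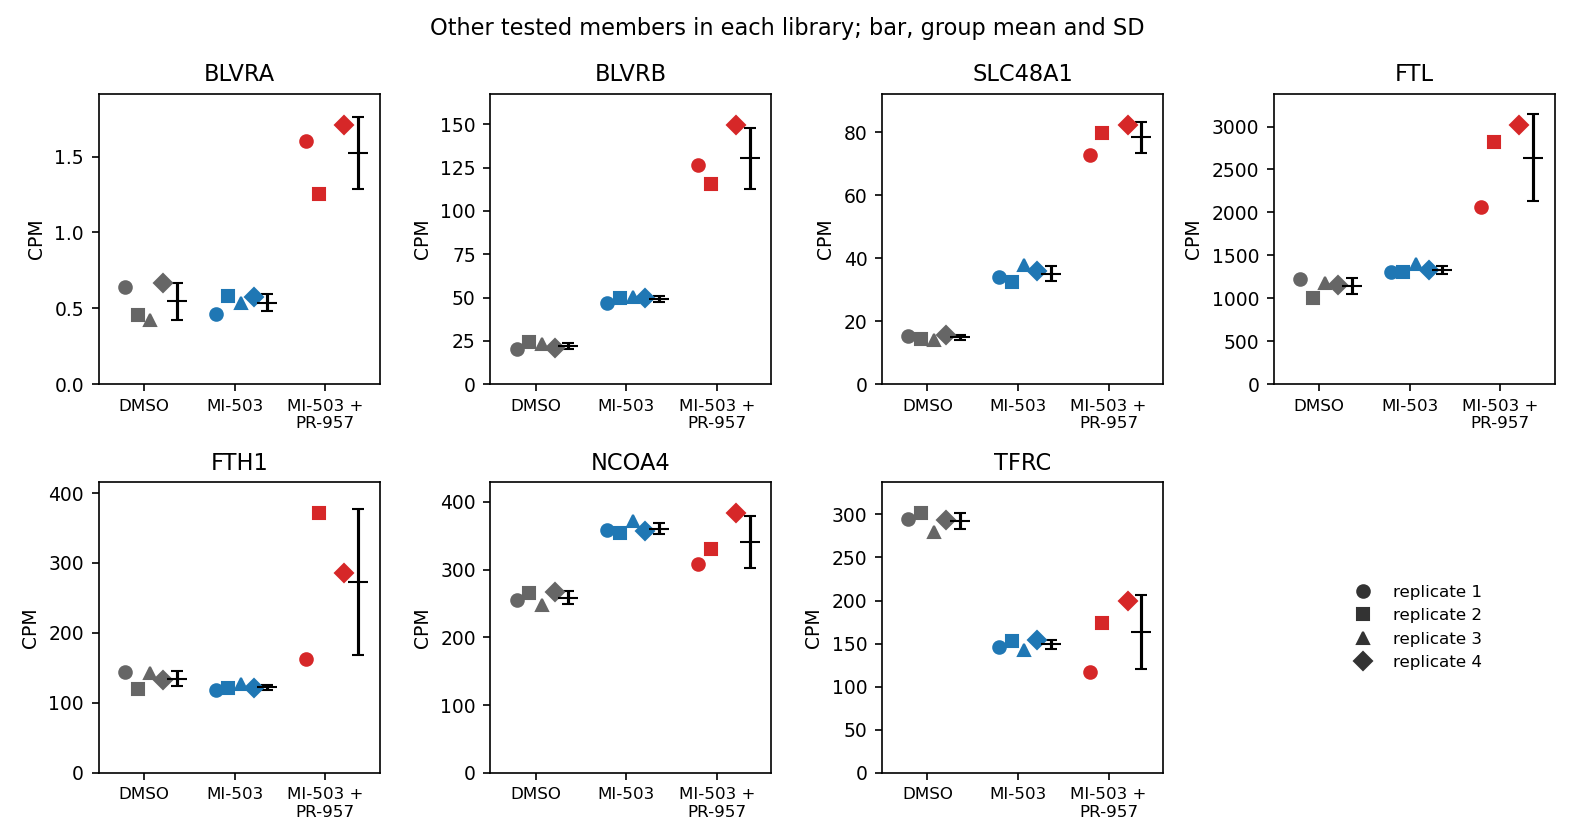
Level (CPM, linear axes from 0) of the 7 other tested members in each library, by group, with the marker shape giving the replicate number and the bar giving the group mean and SD. BLVRB and SLC48A1 step up from DMSO to MI-503 to the combination, while FTH1 and FTL rise mainly in the combination and are lowest there in replicate 1 (163 and 2062 CPM).

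The ferritin chains rose together in the combination. FTL, the light chain, on chromosome 19 from 48963941 to 48966879 on the plus strand, had the highest CPM of the members. It stood at 1223, 1004, 1183 and 1155 CPM in the DMSO replicates and at 1306, 1302, 1403 and 1331 CPM in the MI-503 replicates. In combination replicates 1, 2 and 4 it stood at 2062, 2819 and 3022 CPM, above all other libraries. MI-503 exceeded DMSO by 0.23 (SE 0.09, adjusted p = 0.0412 by edgeR), a call that was lost with DESeq2 (adjusted p = 0.055) and with DMSO replicate 2, 3 or 4, or any single library of MI-503, left out (adjusted p from 0.0581 to 0.135). Without combination replicate 1 the same difference was 0.27 and was called. The combination exceeded DMSO by 1.21 (SE 0.10, adjusted p = 7.56e-09) and MI-503 by 0.98 (SE 0.10), or 1.37 and 1.10 without replicate 1.

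FTH1, the heavy chain, which oxidizes iron for storage, lies on chromosome 11 from 61964285 to 61967634 on the minus strand. It stood at 144, 120, 143 and 132 CPM in the DMSO replicates and at 119, 121, 127 and 122 CPM in the MI-503 replicates, ranges that overlap. In combination replicates 1, 2 and 4 it stood at 163, 371 and 285 CPM. All 3 were above the other groups, and replicate 1 stood at 49.7% of the mean of the others. MI-503 and DMSO differed by -0.14 (SE 0.16, adjusted p = 0.484 by edgeR). The combination exceeded DMSO by 1.01 (SE 0.17, adjusted p = 4.17e-05) and MI-503 by 1.15 (SE 0.17), or 1.30 and 1.40 without replicate 1. FTH1 is counted with reservations, since 73.2% of its exon bases are shared with BEST1 in the annotation and 11.2% of its exon windows recur on other chromosomes, where ferritin pseudogenes lie. Of the pseudogene rows, FTH1P3 had 126 counts over all libraries, with means of 0.378, 0.483 and 0.456 CPM in DMSO, MI-503 and the combination.

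NCOA4 delivers ferritin to the lysosome, where its iron is released, and lies on chromosome 10. It was higher after MI-503 and did not rise further in the combination. The DMSO replicates stood at 255.6, 266, 247 and 266 CPM and the MI-503 replicates at 358, 354, 372 and 357 CPM, with no overlap. Combination replicates 1, 2 and 4 stood at 308, 331 and 383 CPM, from under to over the MI-503 range. MI-503 exceeded DMSO by 0.48 (SE 0.06, adjusted p = 1.84e-06 by edgeR) and the combination exceeded DMSO by 0.40 (SE 0.06, adjusted p = 1.41e-05). The difference between the combination and MI-503 was -0.08 (SE 0.06).

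TFRC, the transferrin receptor, which carries the 4 elements printed above in its 3′ UTR, lies on chromosome 3 from 196018694 to 196082123 on the minus strand. It was lower in both treated groups than in DMSO. The DMSO replicates stood at 295, 302, 280 and 294 CPM and the MI-503 replicates at 145.5, 154, 143 and 154 CPM, so that MI-503 stood at 51.0% of DMSO. MI-503 differed from DMSO by -0.97 (SE 0.11, adjusted p = 9.78e-07 by edgeR). Combination replicates 1, 2 and 4 held 4942, 3481 and 5380 counts, at 0.782-fold, 1.17-fold and 1.34-fold of the MI-503 mean and 0.398-fold, 0.596-fold and 0.684-fold of the DMSO mean. Replicate 1 was under the MI-503 range and the other 2 over it, and all were under DMSO. The combination differed from DMSO by -0.84 (SE 0.12, adjusted p = 5.62e-06), and by -0.62 without replicate 1. Against MI-503 the difference was 0.13 (SE 0.11) and turned on single libraries, with 0.30 without combination replicate 1 and -0.08 without combination replicate 4.

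SLC40A1, ferroportin, the iron exporter, had 1 count in all 11 libraries, in combination replicate 4. A count of 0 allows up to 3 counts per library, or 0.0729 to 0.159 CPM over these depths, a limit that covers counting error only. Its exon windows recurred nowhere else in the genome.

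Of the 8 tested members, 4 were called higher and 1 lower in MI-503 against DMSO, where 22.0% of all tested genes were called higher and 29.3% lower (51.4% in either direction), and 5 did not overlap between the groups, against 50.3% of all genes. In the combination against DMSO, 7 were called higher and 1 lower, against 31.7% and 32.8% of all genes (64.5% in either direction), and all 8 did not overlap, against 60.5%. Against MI-503, 6 were called higher and 0 lower, where 23.6% of all genes were called higher and 23.8% lower (47.4% in either direction), and 6 did not overlap, against 47.6%. Nothing is read from these counts because the members were taken up on this contrast. The median log2 difference of the tested members was 0.32, 1.34 and 1.16 in the 3 contrasts, or 0.23, 1.21 and 1.15 without HMOX1, against -0.03, 0.01 and 0.00 over all tested genes. The 3 contrasts share libraries, so their counts are not independent of each other.

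**Figure D3:**
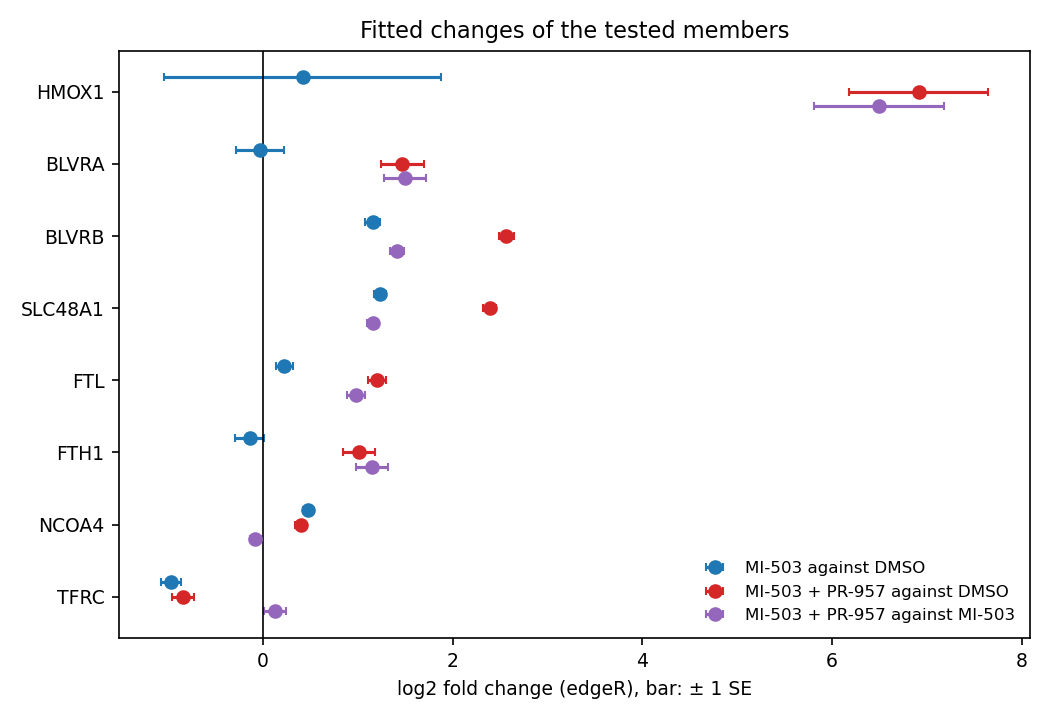
Fitted log2 fold changes (x axis) of the 8 tested members in the 3 contrasts, with bars of 1 SE to each side. BLVRB and SLC48A1 move in both steps, HMOX1, BLVRA, FTL and FTH1 mainly when PR-957 is added, and TFRC and NCOA4 mainly with MI-503, as seen for TFRC with -0.97 in MI-503 against DMSO and 0.13 in the combination against MI-503.

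Taken library by library, the members fell into different patterns in combination replicate 1. BLVRA, BLVRB, SLC48A1 and NCOA4 stood in replicate 1 at 108%, 95.2%, 89.8% and 86.3% of the mean of the other combination libraries. FTL, TFRC and FTH1 stood at 70.6%, 62.3% and 49.7%, and HMOX1 at 11.7%. Between replicates 2 and 4, HMOX1 and FTH1 were higher in replicate 2 and the other tested members in replicate 4. For BLVRA and BLVRB, replicate 1 lay between these 2 libraries.

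**Figure D4:**
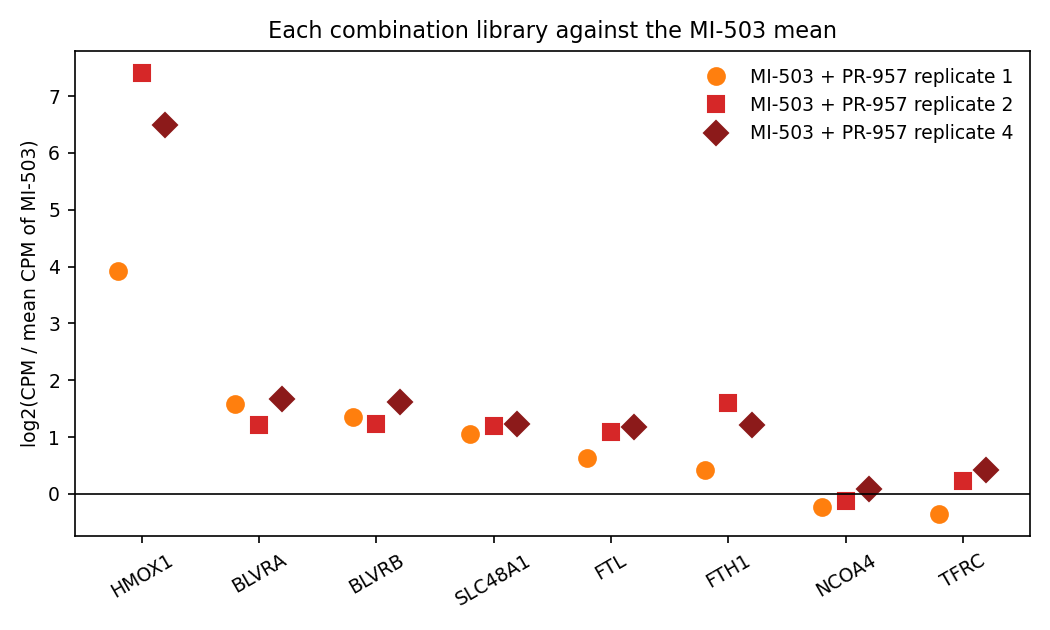
Log2 ratio of each combination library to the MI-503 mean (y axis) for the 8 tested members. Replicate 1 lies far under replicates 2 and 4 for HMOX1 (3.93 against 7.41 and 6.50) and lower for FTH1, FTL and TFRC, but close to them for BLVRA, BLVRB and SLC48A1.

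Levels between genes were compared per kilobase of exon (FPKM). In DMSO the order was FTL with 965 FPKM, FTH1 with 112, NCOA4 with 63.4, TFRC with 37.7, BLVRB with 27.6, SLC48A1 with 2.72, BLVRA with 0.39 and HMOX1 with 0.256, where BLVRA and HMOX1 overlapped. In MI-503, BLVRB with 61.4 FPKM stood above TFRC with 19.2 FPKM, and the rest kept their order. In the combination HMOX1 reached 31.0 FPKM and its range overlapped that of TFRC with 21.1 FPKM, which in turn overlapped SLC48A1 with 14.3 FPKM. BLVRB with 163 FPKM overlapped FTH1 with 227 FPKM there when FTH1 was taken over all of its exon bases. Over its 323 unshared exon bases alone, FTH1 stood at 417, 379 and 846 FPKM in DMSO, MI-503 and the combination. FTL stood at 965, 1130 and 2229 FPKM in these groups. Fragments that reached a shared base were not counted, so the FTH1 values are low estimates and do not place it under FTL. On that length the FTH1 combination libraries, at 505 to 1149 FPKM, did not overlap those of BLVRB, at 144 to 187.5 FPKM.

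In the 250 bases ahead of the transcript start, taken from RefSeq for GRCh38.p14, 8 of the 10 members had an entry. HMOX1 and FTH1 had none. The antioxidant response element core TGACNNNGC, searched on both strands, was in 0 of these members' windows and in 10.9% of 35116 promoters. The pattern TGANTCA, in which N is any base, was found as TGAATCA in 1 window of NCOA4 (6.57% of all promoters). The pattern is wider than the AP-1 site, so this match is not read as one. The E-box CACGTG was found in 1 window of HMOX2 (6.34% of all). A missing match says only that these letters are not in this window.

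The factors known to act on HMOX1 were counted from a list of 8. Against DMSO, MI-503 gave 2 called higher (22.0% of all tested genes) and 2 lower (29.3%), but the lower calls fell to 0 under upper-quartile scaling. In the combination 6 were called higher and 0 lower, both against DMSO (31.7% of all tested genes called higher) and against MI-503 (23.6%), and against MI-503 the median was 0.29. MAFG, a small MAF partner of both NRF2 and BACH1, stood at 254 CPM in MI-503 and at 341, 386 and 401 CPM in combination replicates 1, 2 and 4 (log2 difference 0.57, SE 0.06, adjusted p = 5.21e-07 by edgeR). BACH1, the repressor, stood at 29.4, 38.6 and 45.5 CPM on average in DMSO, MI-503 and the combination, with differences of 0.40 in MI-503 against DMSO (adjusted p = 1.49e-06) and 0.24 in the combination against MI-503 (adjusted p = 0.000427). NFE2L1, a factor related to NRF2, rose by 0.29 (SE 0.04, adjusted p = 2.33e-05) against MI-503.

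The other known NRF2 targets were 12 genes of glutathione and thioredoxin metabolism and detoxification. In MI-503 against DMSO, 1 was called higher (22.0% of all tested genes) and 4 lower (29.3%). These counts were 3 and 3 under upper-quartile scaling and 3 and 4 without combination replicate 1. In the combination against DMSO, 7 were called higher and 2 lower, where 31.7% and 32.8% of all tested genes were. In the combination against MI-503, 10 of 12 were called higher and 0 lower, with a median of 0.58, where 23.6% of all tested genes were called higher and 23.8% lower. The number called higher was 8 to 10 over the 19 alternatives. Of these targets, NQO1, GCLC, TXNRD1 and PRDX1 had been called lower in MI-503 against DMSO. In the combination, NQO1 (-0.39) and PRDX1 (-0.14) were still called lower than DMSO, TXNRD1 (0.12) was not called and GCLC (0.50) was called higher. NQO1 and TXNRD1 are named after their values were seen. GCLM, the modifier subunit of glutathione synthesis, stood at 28.9 and 31.9 CPM on average in DMSO and MI-503 and at 71.1, 66.5 and 75.2 CPM in combination replicates 1, 2 and 4 (1.16 against MI-503, SE 0.07, adjusted p = 5.74e-10 by edgeR). GCLC, the catalytic subunit, stood at 26.3 CPM in MI-503 and at 42.9, 41.8 and 41.7 CPM in these libraries (0.68, adjusted p = 7.62e-08). PRDX1, a peroxiredoxin, was lower in MI-503 than in DMSO (-0.45, adjusted p = 7.65e-07) and higher in the combination than in MI-503 (0.31, adjusted p = 9.87e-05). GCLM and GCLC in replicate 1 differed from the mean of the other combination libraries by 0.01 and 0.04 on the log2 scale, where HMOX1 differed by -3.10. SLC7A11, the cystine transporter, named after its values were seen, was the 1 target of the 12 under 50% in replicate 1, with 43.6 CPM against 99.1 and 105 CPM in replicates 2 and 4 and 28.0 CPM in MI-503.

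Heme synthesis genes were called in both directions. Of 11 tested genes of 13, 3 were called higher and 3 lower in MI-503 against DMSO, 5 and 4 in the combination against DMSO and 4 and 4 in the combination against MI-503, where 51.4%, 64.5% and 47.4% of all tested genes were called. Against MI-503 the number called higher was 1 to 4 over the 19 alternatives, and the calls in either direction fell from 8 to 5 without combination replicate 2 or 4. Against DMSO they fell from 9 to 5 without replicate 4. UROS, which closes the tetrapyrrole ring, stood at 81.1, 66.7 and 56.2 CPM in DMSO, MI-503 and the combination (-0.28 in MI-503 against DMSO, adjusted p = 0.000248 by edgeR, and -0.25 in the combination against MI-503, adjusted p = 0.0017). ALAD, which makes porphobilinogen, stood at 55.8, 65.4 and 74.6 CPM (0.23, adjusted p = 0.000493, and 0.19, adjusted p = 0.00435).

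Heme transport and binding proteins gave 3 called higher and 2 lower of 7 tested genes of 11 in MI-503 against DMSO, 4 and 3 in the combination against DMSO, and 2 and 4 in the combination against MI-503. Over all tested genes, 51.4%, 64.5% and 47.4% were called in either direction in these contrasts. LRP1, the receptor for heme bound to hemopexin, stood at 1.86 and 3.67 CPM in DMSO and MI-503 and at 8.73, 10.8 and 8.89 CPM in combination replicates 1, 2 and 4 (0.99 and 1.36, adjusted p = 2.55e-05 and 1.85e-07 by edgeR). The heme binding proteins PGRMC1 and PGRMC2 were lower in both steps, with -0.34 (adjusted p = 0.000229) and -0.25 (adjusted p = 0.00537) in MI-503 against DMSO and -0.34 (adjusted p = 0.000724) and -0.43 (adjusted p = 0.00014) in the combination against MI-503. HEBP2 rose by 0.51 with MI-503 (adjusted p = 1.94e-08) and was lower in the combination than in MI-503 (-0.30, adjusted p = 2.05e-05).

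Iron uptake, export and storage beyond the members gave 3 called higher and 3 lower of 11 tested genes of 17 in MI-503 against DMSO, 4 and 3 in the combination against DMSO, and 3 and 3 in the combination against MI-503. Shares called in either direction over all tested genes were 51.4%, 64.5% and 47.4% in these contrasts. HFE, which binds the transferrin receptor, stood at 4.60, 2.46 and 9.71 CPM in DMSO, MI-503 and the combination. In combination replicates 1, 2 and 4 it stood at 12.4, 8.07 and 8.70 CPM. HFE was lower with MI-503 (-0.92, SE 0.16, adjusted p = 0.000161 by edgeR) and higher in the combination than in MI-503 (2.01, SE 0.16, adjusted p = 2.9e-08). SLC25A37, the mitochondrial iron importer, stood at 181, 265 and 335 CPM and was higher in each step (0.55, adjusted p = 5.81e-08, and 0.34, adjusted p = 2.8e-05). SLC39A8, a metal importer of the cell surface, stood at 93.7, 83.1 and 54.7 CPM (-0.17, adjusted p = 0.00427, and -0.60, adjusted p = 7.51e-08). CYBRD1, a ferric reductase, stood at 21.1, 37.7 and 39.7 CPM, with a rise of 0.84 in MI-503 against DMSO (adjusted p = 1.07e-07) and a difference of 0.07 in the combination against MI-503 (adjusted p = 0.486).

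Among the iron regulatory proteins and their controller, ACO1 and IREB2, which bind the elements printed above, were called in none of the 3 contrasts by edgeR, with adjusted p from 0.131 to 0.86, and 0 of the 6 unadjusted p-values was under 0.05 (the lowest was 0.0797). IREB2 was called under none of the 19 alternatives. ACO1 was called higher in MI-503 against DMSO without combination replicate 1 (0.12, adjusted p = 0.0409) and with only the compared groups (0.13, adjusted p = 0.0357), and lower in the combination against MI-503 without replicate 1 (-0.22, adjusted p = 0.00535). FBXL5, which brings about the loss of IREB2 protein when iron is plentiful, stood at 27.2, 32.8 and 37.7 CPM in DMSO, MI-503 and the combination. In combination replicates 1, 2 and 4 it stood at 32.65, 41.8 and 38.7 CPM, so replicate 1 lay within the MI-503 range. FBXL5 was called higher in each contrast (0.27, adjusted p = 0.00236 by edgeR, in MI-503 against DMSO). Its call in the combination against MI-503 (0.19, adjusted p = 0.0272) was lost under 7 alternatives.

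Most genes of iron-sulfur cluster assembly, a main use of iron beside heme, had lower RNA with MI-503. Of 18 genes, all tested, 14 were called lower and 0 higher in MI-503 against DMSO, with a median of -0.35, where 29.3% of all genes were called lower. Over the 19 alternatives 13 or 14 were called lower and 0 to 2 higher. HSPA9, the mitochondrial chaperone, stood at 559 and 370.0 CPM in DMSO and MI-503 (-0.59, SE 0.04, adjusted p = 1.31e-08 by edgeR) and at 425, 385 and 420.2 CPM in combination replicates 1, 2 and 4. BOLA3, a late assembly factor, stood at 32.4, 24.2 and 20.4 CPM on average in DMSO, MI-503 and the combination (-0.42 in MI-503 against DMSO, adjusted p = 3.89e-05, and -0.25 in the combination against MI-503, adjusted p = 0.00827). In the combination 12 of the 18 were called lower against DMSO and 1 higher, while against MI-503 5 were called higher (1 to 5 over the alternatives) and 4 lower, and these 9 calls fell to 5 without combination replicate 4. Of all tested genes, 32.8% were called lower and 31.7% higher against DMSO, and 23.8% lower and 23.6% higher against MI-503.

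**Figure D5:**
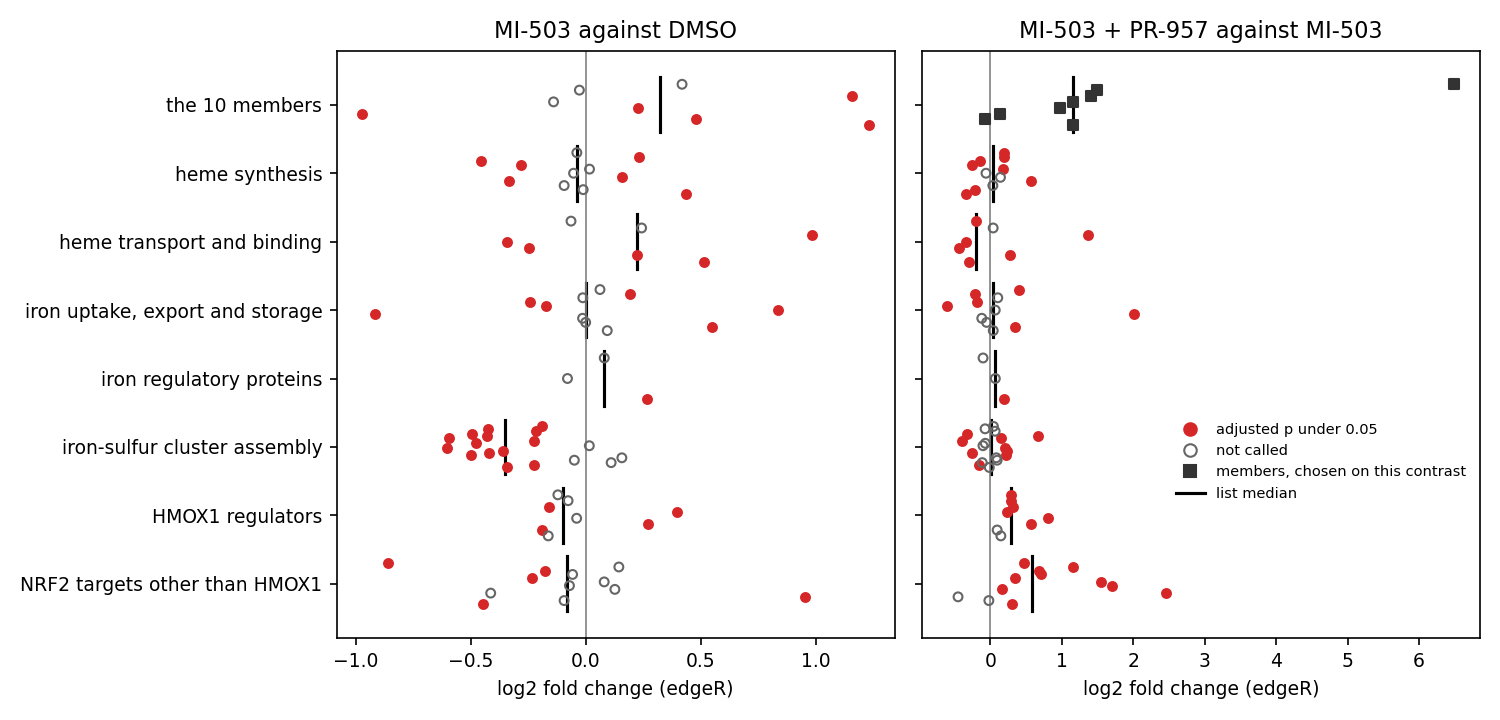
Fitted log2 fold changes (x axis) of the tested genes of each list in MI-503 against DMSO and in the combination against MI-503, with filled points for adjusted p under 0.05, open points for genes not called, squares for members in the contrast they were chosen on, and a bar at the list median. Iron-sulfur cluster genes lie to the left with MI-503 (median -0.35), and NRF2 targets lie to the right when PR-957 is added (median 0.58).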

How the data were processed

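The deposited values are raw fragment counts per gene, 1 set per library and not normalized. Per the file headers, the authors counted with featureCounts 2.0.1 on RefSeq exons of hg38 with strand ignored, leaving out fragments that mapped to several places or overlapped several genes. Trimmomatic 0.39 and STAR 2.7.10a are named in the submitters' processing notes. Alignments had been filtered by a rule not given in the sources used here. Libraries were made from poly(A) RNA with a TruSeq kit and sequenced as pairs on a NovaSeq. The joined table and the single-library counts differed in 0 cells. Tables of the authors' own comparisons, with fold changes and p-values, were not used.

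Groups followed the labels. The 11 libraries were fitted together with edgeR 4.0.16 in R 4.3.3 (TMM scaling, filterByExpr with a minimum count of 10, quasi-likelihood test, two-sided, Benjamini-Hochberg over 14683 genes), with a common biological coefficient of variation of 6.14% and 8 degrees of freedom left for the spread. The filter also kept HMOX1 and BLVRA in a fit without the combination libraries. The fit was tested on simulated data, where 200 genes had been changed. FPKM are CPM per kilobase of exon. Alternatives were other scaling factors, other filters, DESeq2 1.42.0, limma-voom (limma 3.58.1), a fit on the compared groups alone, a replicate block and leaving out each library. Members and gene lists were chosen with earlier results of these data known, so counts over them are descriptions. Outside the members, the text names up to 3 genes of each list with the smallest adjusted p in any contrast at a mean of at least 5 CPM, genes without overlap between any groups and a log2 difference beyond 1, the 6 genes most correlated with HMOX1, and ferritin pseudogenes with 10 or more counts. Promoter sequences came from RefSeq and hairpins from the hg38 genome with GENCODE transcripts. Some genes of the lists are not reported here by name.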

Additional observations from a re-analysis of the deposited data

Results flagged for a closer look

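Of 60 gene and group pairs of 4 libraries examined among the named genes, 4 held a library whose gap to the nearest of the others was above the 95% critical value of Dixon's test, and chance marks about 1 in 20 groups. HMOX1 stood at 0.825 CPM in MI-503 replicate 3, against 0.407 to 0.450 CPM in the other MI-503 libraries, a difference of a few counts. BLVRB stood at 46.7 CPM in MI-503 replicate 1 against 49.7 to 50.2 CPM in the others. ALAD stood at 59.0 CPM in DMSO replicate 2 against 54.6 to 54.8 CPM, and FBXL5 at 33.7 CPM in MI-503 replicate 4 against 32.4 to 32.6 CPM. The combination, with 3 libraries, was not examined in this way.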

How the results depend on the processing

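Of 2217 recomputed values, 2136 kept their direction and their side of the threshold (for counts, stayed within 1.5 times), and where they did not the cause was not tested. HMOX1 in both contrasts of the combination was judged otherwise. It was held unchanged if it moved by less than the SD of its log2 CPM in the combination, a wide limit for such spread libraries. HMOX1 stayed at 6.15 to 7.02 against DMSO and 5.72 to 6.79 against MI-503 under the other settings, and at 6.13 to 7.46 and 5.67 to 6.99 with a library left out. BLVRA in MI-503 against DMSO turned positive, with 0.0346 under upper-quartile scaling and 0.0193 with only the compared groups, and with -0.124 to 0.0728 with a library left out (0.0728 and 0.0594 without DMSO replicate 1 and 4, 0.0306 without MI-503 replicate 1, 0.0168, 0.0092 and 0.00955 without combination replicate 1, 2 and 4). TFRC in the combination against MI-503 was -0.0826 without combination replicate 4, 0.304 without replicate 1 and 0.135 (called) without the filter, and CYBRD1 in that contrast was -0.0164 without combination replicate 2 (-0.0164 to 0.103 with a library left out). NCOA4 was called at -0.211 without combination replicate 4, which gave 1 member called lower there (0 to 1 with a library left out).

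The iron regulatory proteins gave 2 calls in MI-503 against DMSO with only the compared groups (1 to 2 with a library left out), and 0 in the combination against MI-503 with DESeq2 and with only the compared groups (0 to 2 with a library left out). HMOX1 regulators gave 2 calls in MI-503 against DMSO under upper-quartile scaling and under the filter of 5 CPM. With a library left out, heme synthesis gave 5 to 9 calls in the combination against DMSO and 5 to 8 against MI-503, and iron-sulfur cluster assembly 5 to 9 against MI-503. Upper-quartile scaling moved all calls in MI-503 against DMSO from 3235 higher and 4307 lower to 3968 and 3356. Replicate numbers gave no clear sign of pairing. Same-numbered libraries correlated at -0.11 to 0.139 in their deviations from the group means, and differently numbered ones at -0.137 to 0.115. Such weak correlations cannot exclude pairing. With the replicate block, HMOX1 differed by 7.02 from DMSO and by 6.79 from MI-503 in the combination and by 0.223 in MI-503 against DMSO. Depth limits HMOX1, at 5 to 20 counts without PR-957, and BLVRA.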
